A study of Mus musculus with 426 samples.

Results

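The 9 genes described here belong to the neutrophil receptor and inflammatory programme and were followed across single cells of a mouse pancreatic tumour model: *Il1b*, *Il1r2*, *Csf3r*, *Cxcr2*, *S100a8*, *S100a9*, *Clec4d*, *G0s2* and *Osm*. They were taken by symbol, and all 9 were found among the 24424 genes used from the RNA table. KPC1199-EGFP cells, a mouse pancreatic cancer line carrying green fluorescent protein, had been injected in matrigel (50000 cells per animal) into the pancreas of C57BL/6 males aged 6-8 weeks, and the tumours grew for 6-8 weeks. All groups therefore come from tumour-bearing animals, with no tumour-free control. Live cells were sorted from primary tumours of 3 mice as CD45+, GFP+, EpCAM+ or GFP+EpCAM+, and as GFP+ cells from peritoneum (3 mice) and from kidney, liver and spleen (mice 2 and 3). The assay, GTO-seq, amplifies the messenger RNA (as full-length cDNA) and the genomic DNA of 1 cell in the same tube, and reads over exons make up the RNA table.

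After merging 2 pairs of libraries, described next, 418 single cells remained, and 368 of them had at least 500 genes and 10000 counts: 56 CD45+, 76 GFP+, 25 EpCAM+ and 31 GFP+EpCAM+ cells from primary tumours, with a further 85 GFP+ cells from peritoneum, 44 from kidney, 35 from spleen and 16 from liver. These cells held 10805 to 17845616 RNA counts, with a median of 1016776. Among peritoneum cells of mouse 1, cell 25 matched cell 33 and cell 26 matched cell 34, with DNA counts that differed by less than sampling noise (chi-square per degree of freedom 0.735 and 0.854, against at least 1.61 in every other pair compared), so each pair was counted as 1 cell. Levels are given in CPM, a gene's counts divided by all RNA counts of the cell and multiplied by 1000000. CPM is not corrected for transcript length, so levels are compared between cells and groups and not between genes. A gene is called detected in a cell at 10 CPM or more. The mouse is the replicate, cell numbers are only names, and mean ± SD is over the means of the mice.

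Neutrophils are short-lived granulocytes that are drawn into tissue by chemokines acting on CXCR2 and are produced and kept alive under G-CSF, which signals through the receptor encoded by *Csf3r*. S100A8 and S100A9 form the calcium-binding heterodimer calprotectin, an abundant protein of the neutrophil cytosol. *Il1b* encodes the cytokine interleukin-1 beta, and *Il1r2* the decoy receptor that binds it without signalling. *Clec4d* encodes a C-type lectin of myeloid cells, *G0s2* an inhibitor of the lipase ATGL, and *Osm* the cytokine oncostatin M. Several of these genes are not exclusive to neutrophils: macrophages and monocytes are well-known sources of interleukin-1 beta and oncostatin M.

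Start-site sequences were matched for 8 of the 9 genes in RefSeq's table (build GRCm38.p6). The 250 bases before the start are shown for the calprotectin pair, which were detected in nearly the same CD45+ cells, and for *Il1b*, *Csf3r* and *Clec4d*, whose cell patterns differed. Capitals mark matches, on either strand, to TTNNGNAA, a short form of the C/EBP motif, or to GAGGAAG, a short form of the PU.1 motif. C/EBP factors and PU.1 are transcription factors of myeloid cells.
S100a8 (chr3:90668821-90669070, plus strand): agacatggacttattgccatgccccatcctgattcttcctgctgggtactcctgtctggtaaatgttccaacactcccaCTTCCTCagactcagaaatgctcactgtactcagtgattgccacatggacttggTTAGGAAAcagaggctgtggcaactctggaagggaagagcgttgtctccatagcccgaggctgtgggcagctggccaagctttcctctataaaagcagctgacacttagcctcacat
S100a9 (chr3:90695722-90695971, minus strand): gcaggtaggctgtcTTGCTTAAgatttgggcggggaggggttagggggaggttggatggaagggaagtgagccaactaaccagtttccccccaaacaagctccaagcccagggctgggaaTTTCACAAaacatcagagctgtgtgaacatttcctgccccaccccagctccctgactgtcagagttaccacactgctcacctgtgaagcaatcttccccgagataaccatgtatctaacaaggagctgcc
Il1b (chr2:129371140-129371389, minus strand): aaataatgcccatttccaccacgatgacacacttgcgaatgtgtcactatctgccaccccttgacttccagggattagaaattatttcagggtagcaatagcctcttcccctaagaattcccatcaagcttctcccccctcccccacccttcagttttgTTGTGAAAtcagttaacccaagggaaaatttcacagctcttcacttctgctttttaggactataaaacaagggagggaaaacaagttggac
Csf3r (chr4:126024409-126024658, plus strand): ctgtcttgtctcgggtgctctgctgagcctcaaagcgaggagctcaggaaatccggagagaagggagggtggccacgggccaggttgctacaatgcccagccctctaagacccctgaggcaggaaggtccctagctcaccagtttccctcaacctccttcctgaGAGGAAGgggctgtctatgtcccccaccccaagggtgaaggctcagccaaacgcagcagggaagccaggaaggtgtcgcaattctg
Clec4d (chr6:123261857-123262106, plus strand): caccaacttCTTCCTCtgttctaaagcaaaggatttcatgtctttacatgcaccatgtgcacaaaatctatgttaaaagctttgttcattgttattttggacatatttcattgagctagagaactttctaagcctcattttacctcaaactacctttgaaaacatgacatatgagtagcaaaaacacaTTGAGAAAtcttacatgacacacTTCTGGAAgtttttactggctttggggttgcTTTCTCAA
TTNNGNAA was found in 4 of the 8 windows (*S100a8*, *S100a9*, *Il1b* and *Clec4d*) and in 36.8% of all 32851 windows of that length. GAGGAAG was found in 3 of the 8 (*S100a8*, *Csf3r* and *Clec4d*) and in 10.6% of all windows. TATAAA stood in 2 of the 8 windows, those of *S100a8* and *Il1b*, and in 12.4% of all. The windows of *Il1r2*, *Cxcr2* and *G0s2* held none of these letters. *S100a8* and *S100a9* thus share a C/EBP match and differ in the other 2 motifs. These are letter matches and were not tested against any binding data.

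Before the comparisons, cells that stood apart have to be named. Among GFP+ cells of the metastasis sites, 29 of the 73 cells of mouse 2 had at least 100 counts of *Il1b*, against 2 of the 107 cells of the other mice. They came from every site of that mouse: 12 from kidney, 11 from peritoneum, 3 from liver and 3 from spleen. In most of these cells *Il1r2*, *Csf3r* and *Cxcr2* lay in a narrow range of proportion to *Il1b*. The median ratio of counts to those of *Il1b* was 0.454 for *Il1r2* (quartiles 0.372 and 0.542), 0.353 for *Csf3r* (0.311 and 0.410) and 0.148 for *Cxcr2* (0.0893 and 0.172), while the medians for *S100a8*, *S100a9* and *Osm* were 0. The extremes were wider, 0.0637 to 9.17 for *Il1r2*, 0 to 1.46 for *Csf3r* and 0 to 0.214 for *Cxcr2*. Peritoneum cell 42, 1 of the 29, had no *Csf3r* or *Cxcr2* counts and correlated best with another CD45+ cell of the same mouse, cell 31 (r = 0.945).

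Among 31 CD45+ cells with as many *Il1b* counts, the same ratios ranged widely: the quartiles were 0.0203 and 0.653 for *Il1r2*, and 8.46e-05 and 0.111 for *Csf3r*. Ratios of at least 0.2 for *Csf3r* and 0.06 for *Cxcr2*, limits set after the values were seen, were met together by 25 of the 29 cells of mouse 2, by 1 of the 31 CD45+ cells and by 0 of 8 other cells. That 1 CD45+ cell, cell 35 of the same mouse, had ratios of 0.367, 0.406 and 0.118, 5250927 RNA counts, and 91.4% of all *Cxcr2* CPM summed over the CD45+ cells of mouse 2. Over 119 genes, 17 of the 29 cells correlated best with cell 35 among all CD45+ cells. In those 17, r was 0.517 to 0.815, and r with the next CD45+ cell was 0.469 to 0.618. Of the 8 other cells, 1 also correlated best with cell 35. The 119 came from the pathway lists and the neutrophil marker list, with the genes described here included and other marker lists left out. The 29 cells were picked on *Il1b* and cell 35 on its ratios, so these correlations partly reuse the values that picked them. *Ptprc*, the gene of CD45, was under 10 CPM in 26 of the 29, and the fibroblast collagen gene *Col1a1* reached 100 CPM in 20. For comparison, *Ptprc* reached 10 CPM in 43 of all 56 CD45+ cells. Cell 35 itself had 19.2 CPM of *Ptprc* beside 34527 CPM of *Il1b*, so it was also low in *Ptprc* for its *Il1b* level. *Col1a1* averaged 1324 ± 926 CPM (SD, 3 mice) in GFP+ primary cells. Whether RNA of another cell entered these libraries was not tested. The log2 differences of these genes at the sites are therefore also given without mouse 2, and the tests of *Cxcr2* in CD45+ cells without cell 35.

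**Figure D1:**
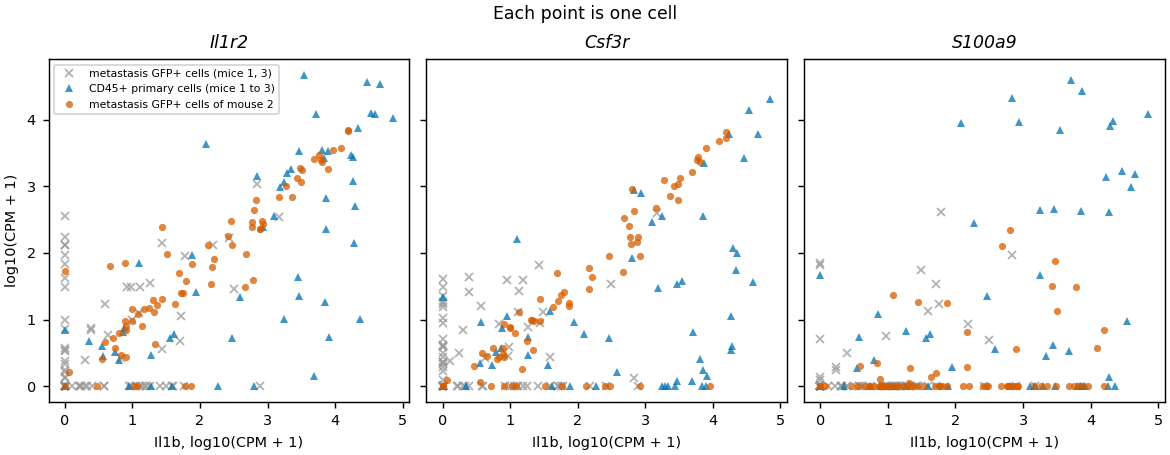
Levels of *Il1r2*, *Csf3r* and *S100a9* (y axis, log10 of CPM + 1) against *Il1b* (x axis, same scale) in single cells. Metastasis GFP+ cells of mouse 2 (orange circles) lie along 1 line for *Il1r2* and *Csf3r* and mostly at 0 for *S100a9*. CD45+ cells (blue triangles) scatter, and GFP+ site cells of mice 1 and 3 (grey crosses) are mostly low.

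The sort labels were compared with marker genes. *Ptprc* reached 10 CPM in 43 of the 56 CD45+ cells and was at 0 in 3, and *Epcam* reached 100 CPM in 9. The CD45+ cells were a mixture: 15 had at least 100 CPM of the macrophage complement gene *C1qa* and 5 at least 100 CPM of the T cell gene *Cd3e*. Of neutrophil markers outside the 9 genes, *Hdc*, which makes histamine, reached 100 CPM in 14 of the 56 cells, *Trem1* in 15, the collagenase gene *Mmp8* in 2 and the gelatinase gene *Mmp9* in 10. *Slpi* reached that level in 7 cells, *Wfdc21* in 4, and *Retnlg* and *Cxcr1* in 1 each. *Ly6g*, the defining surface marker of mouse neutrophils, reached 10 CPM in 2 cells and 100 CPM in 0. No cell was named a neutrophil here, and the genes are described by their own levels.

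All 9 genes were higher in CD45+ cells than in GFP+ cells of the primary tumour, and 7 of the 9 passed the test, edgeR's quasi-likelihood test on counts summed per mouse and sort, with Benjamini-Hochberg adjusted p under 0.05 over all genes. All 9 were among the 19703 genes tested, of which 0.629% were called higher and 0.817% in either direction. The median log2 difference was 10.56 over the 9 genes, against 0.20 over all genes. The size of the differences depended on how cells were weighted: with each cell weighted alike (limma on log2(CPM + 1)), they were 7.76 for *Il1b*, 5.79 for *Il1r2*, 4.17 for *Osm*, 3.86 for *S100a9*, 3.40 for *S100a8*, 2.99 for *G0s2*, 2.83 for *Csf3r* and *Clec4d* and 1.25 for *Cxcr2*.

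The cytokine *Il1b* averaged 1367, 11456 and 13298 CPM in the CD45+ cells of mice 1, 2 and 3 and 1.25, 17.3 and 253 CPM in the GFP+ cells. Each CD45+ value was above each GFP+ value, and mouse 1 was lowest in both sorts. How many of all genes separate in this way was not counted, here or for the genes below. The log2 difference was 10.61 ± 1.89 (SE, 3 mice per sort, edgeR adjusted p = 0.00354). *Il1b* was detected in 46 of 56 CD45+ cells (82.1%, exact 95% interval 69.6 to 91.1%) and in 13 of 76 GFP+ cells (17.1%, 9.43 to 27.5%). In GFP+ cells of mouse 3, 1 cell with 5040 CPM made up 73.8% of the summed CPM. In mice 1, 2 and 3 it was detected in 15 of 22, 18 of 20 and 13 of 14 CD45+ cells and in 1 of 31, 5 of 18 and 7 of 27 GFP+ cells. The intervals pool the cells of 3 mice and cover counting error only, not the spread between mice.

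*Osm*, the other cytokine, averaged 159, 672 and 1762 CPM in CD45+ cells of mice 1, 2 and 3 and at most 3.35 CPM in GFP+ cells of any mouse. The groups did not overlap. Its log2 difference was 11.65 ± 1.86 (SE, edgeR adjusted p = 0.00149). It was detected in 25 of 56 CD45+ and 3 of 76 GFP+ cells.

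Of the 3 receptors, the decoy receptor *Il1r2* averaged 3040, 2937 and 5887 CPM in CD45+ cells of mice 1, 2 and 3, and 1.42, 7.26 and 23.6 CPM in GFP+ cells. Mice 1 and 2 had close means but unlike cells: in mouse 1, cell 2, with 47630 CPM, held 71.2% of the summed CPM and the median cell had 5.69 CPM, while in mouse 2 the median cell had 1332 CPM. The log2 difference was 10.59 ± 1.65 (SE, edgeR adjusted p = 0.00147). *Csf3r* differed widely between mice, with means of 28.7, 2267 and 648 CPM in CD45+ cells and 3.61, 6.59 and 69.01 CPM in GFP+ cells. The CD45+ mean of mouse 1 lay below the GFP+ mean of mouse 3, of which 1 cell with 1679 CPM made up 90.1%. The log2 difference of *Csf3r* was 9.48 ± 1.87 (SE, edgeR adjusted p = 0.0103), and without mouse 2 it was 7.87 with an adjusted p of 0.165.

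*Cxcr2*, the chemokine receptor, did not pass the test. Its CD45+ means were 7.97, 223 and 5.24 CPM in mice 1, 2 and 3, and its GFP+ means 1.36, 3.38 and 82.8 CPM, so the groups overlapped. The high CD45+ value came from cell 35 of mouse 2 with 4086 CPM, and the high GFP+ value from cell 81 of mouse 3 with 2224 CPM, which held 99.5% of that mouse's summed CPM. The log2 difference was 7.55 ± 2.24 (SE, edgeR adjusted p = 0.0998), and without cell 35 it was 1.17 (0.628). Against EpCAM+ cells it was 7.85 (0.0893), and without cell 35 it was 1.48 (0.674). *Cxcr2* was detected in 9 of 56 CD45+ cells (16.1%, 7.62 to 28.3%) and reached 100 CPM in 2.

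The calprotectin genes were present in every mouse. *S100a9* averaged 2543, 3668 and 1531 CPM in CD45+ cells of mice 1, 2 and 3 and at most 15.1 CPM in GFP+ cells of any mouse, with a log2 difference of 10.56 ± 2.10 (SE, edgeR adjusted p = 0.0107). *S100a8* averaged 1286, 1873 and 721 CPM in CD45+ cells and 0, 10.9 and 0.117 CPM in GFP+ cells. The groups did not overlap for either gene, a separation that was not counted over all genes. The log2 difference of *S100a8*, 9.42 ± 2.49 (SE), missed the threshold with an edgeR adjusted p of 0.0674 and passed it with mouse as a block (12.93, adjusted p = 0.0108) and without mouse 2 (13.16, adjusted p = 0.00467). In mouse 1, CD45+ cell 16 alone held 70.3% of the summed *S100a9* CPM (39336 CPM) and 63.2% of *S100a8* (17879 CPM).

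*G0s2* and *Clec4d* also passed the test. *G0s2* averaged 429, 440 and 2049 CPM in CD45+ cells of mice 1, 2 and 3 and at most 1.03 CPM in GFP+ cells of any mouse, a log2 difference of 11.91 ± 2.48 (SE, edgeR adjusted p = 0.0158). In mouse 1, 1 cell with 8888 CPM held 94.3% of its sum. *Clec4d* averaged 1101, 42.9 and 803 CPM in CD45+ cells and at most 3.53 CPM in GFP+ cells, a log2 difference of 9.95 ± 1.96 (SE, edgeR adjusted p = 0.00981). Mouse 2, the highest for *Csf3r*, was the lowest for *Clec4d*. No CD45+ and GFP+ means overlapped for these 2 genes.

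The calls depended on the mice. Without mouse 3, *Il1b* (adjusted p = 0.00337) and *Il1r2* (0.0462) still passed and the other 5 called genes did not, with edgeR adjusted p of 0.165 to 0.410; over all genes, calls of higher expression went from 124 to 17. Log2 differences without mouse 3 were 7.37 to 12.71 over the 9 genes. Since summed counts mix how many cells carry a transcript with how much each carries, numbers of cells are also given. Of the 56 CD45+ and 76 GFP+ cells, *Il1r2* was detected in 34 and 8, *Csf3r* in 24 and 13, and *S100a8* in 19 and 2. *S100a9* was detected in 22 and 5, *Clec4d* in 20 and 4, and *G0s2* in 17 and 1. *Cxcr2* was detected in 3 of the 76 GFP+ cells.

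**Figure D2:**
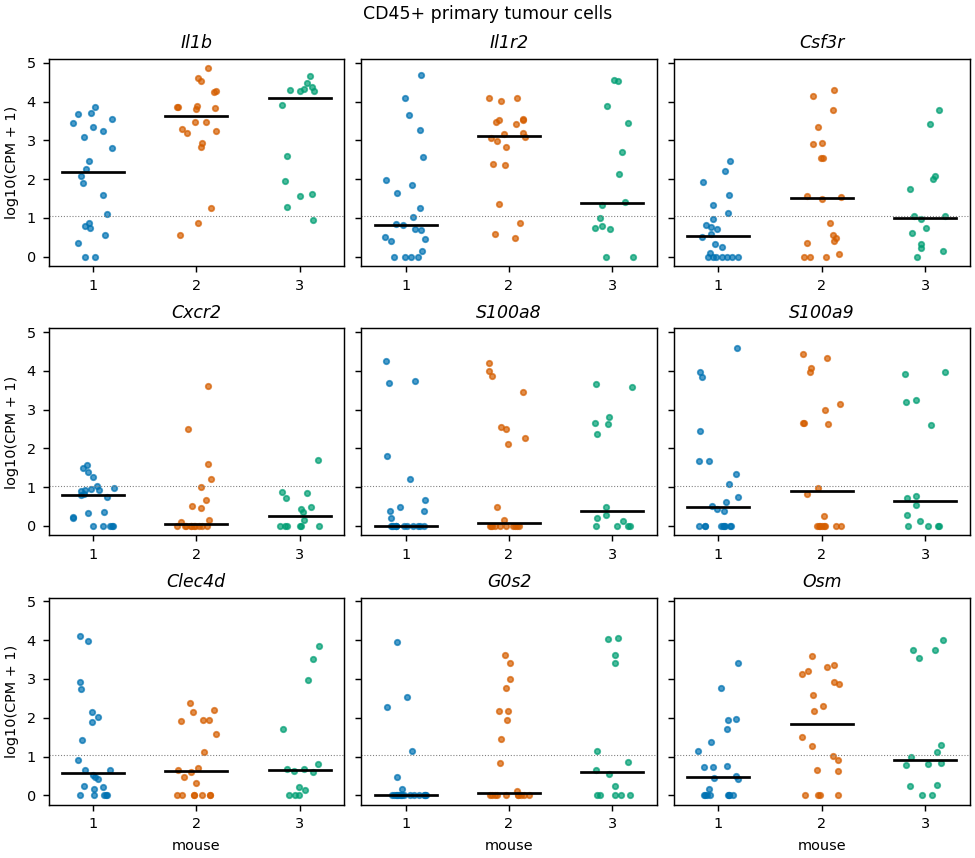
Level of each gene (y axis, log10 of CPM + 1) in each CD45+ cell by mouse (x axis). Each point is a cell, the black bar is the median cell and the dotted line marks 10 CPM. *Il1b* is the gene whose median cell exceeds 100 CPM in all 3 mice, and most other genes are near 0 in the median cell with a few cells far above 100 CPM.

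Against the other tumour sorts the picture was similar. Compared with GFP+EpCAM+ cells, all 9 genes were called higher (1.18% of all genes were called higher, 1.69% in either direction), with log2 differences of 8.46 (*Clec4d*) to 11.94 (*Il1r2*) and edgeR adjusted p of 0.000484 (*Il1r2*) to 0.0390 (*Cxcr2*). The *Cxcr2* call was lost with mouse as a block (adjusted p = 0.128), without mouse 2 (0.479) and without cell 35 (0.130). Without mouse 3, *Il1b* and *Il1r2* alone remained called. Compared with EpCAM+ cells, 6 of the 9 passed (0.619% of all genes were called higher, 0.797% in either direction). They were *Il1b*, *Il1r2*, *Csf3r*, *Clec4d*, *G0s2* and *Osm*, with log2 differences of 9.25 to 13.56. The largest was that of *G0s2*, of which 2 of 25 EpCAM+ cells held a count. In summed counts its EpCAM+ level was 0.103 ± 0.178 CPM (SD, 3 mice). *Osm* (0.619 CPM) and *Csf3r* (0.699 CPM) were also low there. With levels so near 0, the sizes of their differences rest on few counts.

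*S100a8* and *S100a9* did not pass against EpCAM+ cells (log2 differences 5.30 ± 2.08 and 6.46 ± 1.78, SE; edgeR adjusted p = 0.195 and 0.0737). EpCAM+ means of *S100a8* were 1.65, 497 and 0 CPM in mice 1, 2 and 3, and of *S100a9* 2.01, 474 and 0.433 CPM. A single EpCAM+ cell, cell 19 of mouse 2, had 3978 CPM of *S100a8* and 3777 CPM of *S100a9*, with 0 CPM of *Csf3r*, *Il1r2*, *Clec4d*, *G0s2* and *Osm*, 3.79 CPM of *Ptprc* and 41.7 CPM of *Epcam*. Without mouse 2 both genes passed (log2 differences 11.24 and 11.33, adjusted p = 0.0200 and 0.00346), while *Csf3r* did not (0.0742). *S100a9* also passed with mouse as a block (9.16, adjusted p = 0.00913). Without mouse 3, 2 genes passed, *Il1b* (adjusted p = 0.00203) and *Il1r2* (0.0221). The 3 comparisons share the CD45+ cells and are not independent of each other.

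**Figure D3:**
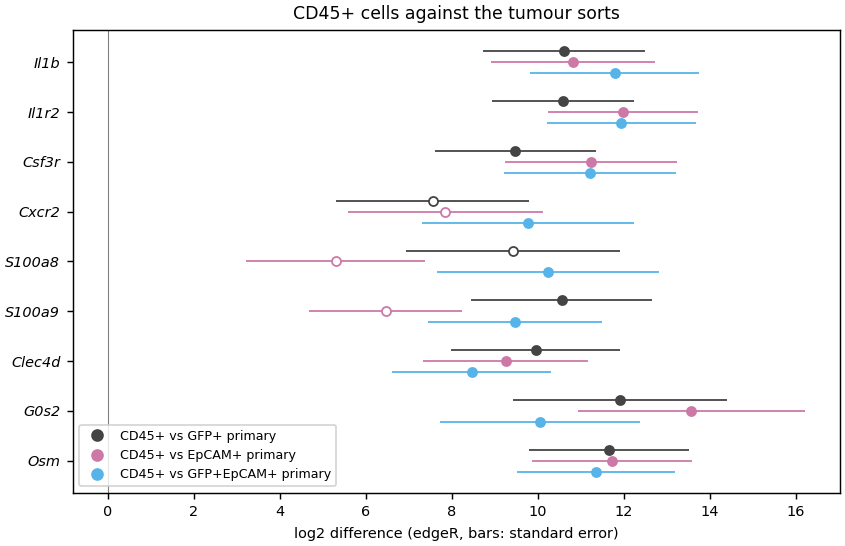
Log2 difference (x axis) of CD45+ cells against 3 tumour sorts for each gene, from edgeR on counts summed per mouse; bars are standard errors. Filled points have an adjusted p under 0.05 and open points do not: *Cxcr2* and *S100a8* are open in 2 comparisons and *S100a9* in 1.

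Among the tumour sorts themselves, none of the 9 genes and no other gene passed, between EpCAM+ and GFP+ or between GFP+EpCAM+ and GFP+ cells (0% called of 19703 genes; 2256 and 2002 genes had an unadjusted edgeR p under 0.05, and DESeq2 called 293 higher and 541 lower, and 380 higher and 465 lower, none of them among the 9). Log2 differences were -1.75 to 4.12 and -2.22 to 1.86. The largest differences, *S100a8* at 4.12 ± 1.97 and *S100a9* at 4.09 ± 1.59 (SE) in EpCAM+ cells, had adjusted p of 0.424 and 0.362 and cell 19 of mouse 2, described above, held 99.98% of the summed *S100a8* CPM of its mouse. At least 3 of the 9 genes were detected together in 7 of 76 GFP+, 5 of 25 EpCAM+ and 4 of 31 GFP+EpCAM+ cells, against 39 of 56 CD45+ cells. With a single count as the limit, members were seen in many more tumour cells (*Il1b* in 41 of 76 GFP+ cells, *Csf3r* in 39). Exonic reads of genomic DNA enter the RNA table in this assay, and their part in such low counts was not tested.

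Within the CD45+ cells, the 9 genes did not mark a single set of cells. The calprotectin genes had the strongest rank correlation of the 36 pairs (Spearman rho 0.78 over 56 cells; 0.57, 0.92 and 0.73 within mice 1, 2 and 3). *S100a8* was detected in 19 cells, *S100a9* in 22, and both in 17. Among those 17 the ratio of *S100a9* to *S100a8* CPM was 0.705 to 5.24 with a median of 2.17. *Il1b* and *Il1r2* followed with rho 0.71: all 34 cells with the decoy receptor also had its ligand, and 12 further cells had *Il1b* without *Il1r2*. *Csf3r* and *G0s2* had rho 0.66 and 14 cells in common, of 24 and 17. These correlations describe cells that share depth and mouse, and carry no test.

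*Il1b* was the most widely detected gene and spanned cells of different kinds. At 100 CPM it was present in 38 of 56 cells. Of these, 16 also had *S100a9* and not *C1qa*, 11 had *C1qa* and not *S100a9*, 2 had both and 9 had neither. All 18 cells with *S100a9* and 13 of the 15 with *C1qa* had *Il1b*. Of the 16 cells with *Osm*, 6 had *S100a9* and not *C1qa*, 8 had *C1qa* and not *S100a9*, 1 had both and 1 neither. It had no rank relation to *S100a9* (rho 0.04) and a positive one to the lysozyme gene *Lyz2* (rho 0.44).

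The overlap of the other genes with *C1qa* is given beside their count in all 56 cells. At 100 CPM, *S100a8* was found in 1 of the 15 *C1qa* cells and in 17 of all 56, *G0s2* in 1 and 13, *Clec4d* in 1 and 12, *Csf3r* in 2 and 13, and *Cxcr2* in 0 and 2. *Csf3r* shared 10 of its 13 cells with *S100a9* and 10 with *G0s2*. Its relation to *S100a9* differed by mouse, with rho of -0.18, 0.83 and 0.47 in mice 1, 2 and 3 and 0.07 without mouse 2, and its rho to *G0s2* was 0.40, 0.82 and 0.67. *Clec4d* was detected in 20 cells, of which 13 also had *S100a9*, and its rho was 0.38 to *S100a9* and 0.07 to *Csf3r*. *Cxcr2* had no rho above 0.26 with any other member, and its 2 cells above 100 CPM were cells 35 and 40 of mouse 2. None of the 9 genes reached 100 CPM in any of the 5 cells with *Cd3e*. All 9 were detected together in 2 cells, both of mouse 2, and 6 cells had none.

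**Figure D4:**
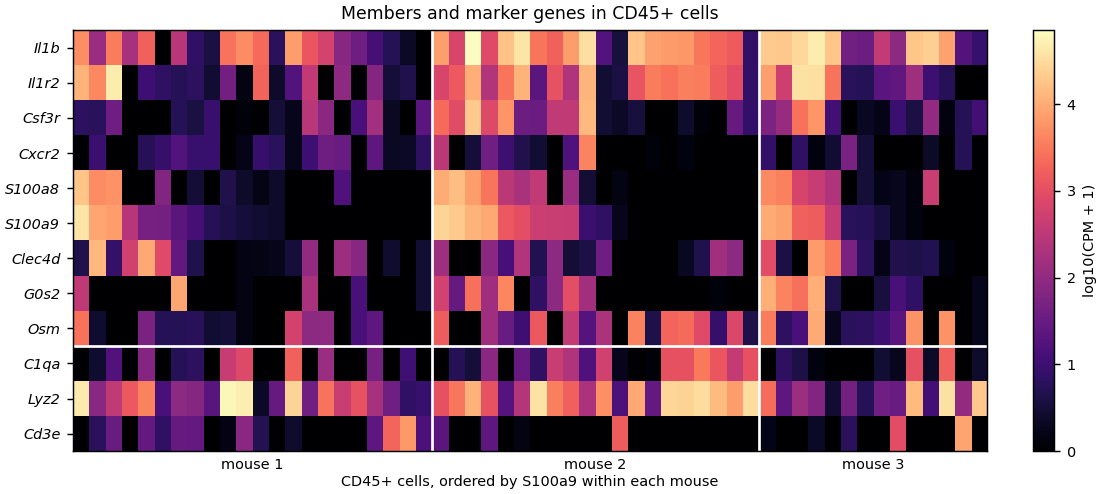
Levels (colour, log10 of CPM + 1) of the 9 genes and of *C1qa*, *Lyz2* and *Cd3e* (rows) in 56 CD45+ cells (columns), split by mouse and ordered by *S100a9*. *Il1b* is bright in cells with *S100a9* and in cells with *C1qa*, while *S100a8* and *G0s2* are bright mostly on the left of each block.

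Genes with the most similar pattern over the 56 CD45+ cells, among 11070 genes ranked, are given as a description. *Il1b* was nearest to the immediate-early gene *Junb* (rho 0.68), the mRNA-decay factor *Zfp36* (0.68) and *Nr4a1* (0.65). *Il1r2* was nearest to the receptor genes *Lilr4b* (0.67), *Lilrb4a* (0.61) and *Cd300lf* (0.59). *Csf3r* and *G0s2* had the same first neighbour, *Hdc* (0.70 and 0.72), followed by *Csrnp1* (0.58) and *Ppp1r3b* (0.57) for *Csf3r* and by *Mxd1* (0.62) and *Plek* (0.54) for *G0s2*. *S100a8* and *S100a9* had the same first neighbour too, the C-type lectin gene *Clec4e* (0.70 and 0.65), followed by *Lrg1* (0.56) and *Lcn2* (0.54) for *S100a8* and *Slfn4* (0.62) and *Rab44* (0.62) for *S100a9*.

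*Osm* was nearest to the monocyte co-receptor gene *Cd14* (0.62), *Lgmn* (0.60) and *Apoc2* (0.59), none of which was among the 3 nearest genes of another member. *Clec4d* was nearest to *Smox* (0.55), *Tspan15* (0.54) and *Skil* (0.53). *Cxcr2*, detected in 9 cells, was nearest to *Lamp3* (0.78), *Ptpn14* (0.71) and *Adgra1* (0.70), which were detected in 11, 24 and 12 cells; at such low levels these ranks rest on few counts.

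Partners of the 9 genes were counted from fixed lists, leaving the 9 genes out. In CD45+ against GFP+ cells, 2 of 12 other interleukin-1 pathway genes were called higher and 0 lower: *Il1a*, the sister cytokine (1407 ± 969 against 27.9 ± 29.4 CPM, SD, 3 mice; edgeR adjusted p = 0.0122), and *Il1rn*, the receptor antagonist (5322 ± 1522 against 112 ± 108 CPM; 0.0141). The list's median log2 difference was 2.10. Of 5 chemokine ligands of CXCR2, *Cxcl3* (adjusted p = 0.00489) and *Ppbp* (0.00965) were called higher, *Ppbp* with means of 0.536 to 4773 CPM among the mice; *Ppbp* is a platelet chemokine gene. *Cxcl5* had 9.63 ± 12.9 CPM in the CD45+ sort, and its GFP+ mean was 188 ± 147 CPM (adjusted p = 0.0826).

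Of 19 other receptors of neutrophil recruitment and activation, 6 were called higher and 0 lower, with a median log2 difference of 6.64: *Selplg*, *Trem1*, *C5ar1* and *Csf2rb* (adjusted p of 0.00132 to 0.0148), *Cd14* and *Itgb2*. Of 9 C-type lectin partners tested, *Clec4n*, *Fcer1g* and *Clec4e* were called higher. Of 31 granule and maturation genes listed, 21 passed the filter on low counts; the median log2 difference of the 21 was 6.65, and *Hdc* was among those called higher (10.37 ± 1.93, SE; edgeR adjusted p = 0.00558). None of 12 partners of G-CSF and oncostatin M, of 12 other S100 genes and receptors or of 8 lipid-droplet partners of G0S2 was called. The oncostatin M receptor gene *Osmr* had 12.5 ± 11.1 CPM in the CD45+ sort, and its GFP+ mean was 198 ± 165 CPM (SD, 3 mice; edgeR adjusted p = 0.0730).

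At the metastasis sites none of the 9 genes passed against GFP+ cells of the primary tumour (0% of 21988 genes were called in kidney and spleen, 0.0091% in peritoneum, all lower, and 0.0136% in liver, of which 0.00455% higher; unadjusted edgeR p under 0.05 for 1321, 1355, 1341 and 3130 genes). DESeq2 called *Il1r2* in peritoneum (adjusted p = 0.0436), and *Il1r2* (0.0247) and *S100a9* in liver. Over all genes DESeq2 called 82 higher and 86 lower in peritoneum, and 532 higher and 623 lower in liver. In peritoneum and kidney *Il1b* and the 3 receptors had the largest differences of the 9. *Csf3r* had a log2 difference of 5.91 ± 1.72 for peritoneum (SE, edgeR adjusted p = 0.324), 5.39 ± 1.72 for liver (0.214), 4.75 ± 1.68 for kidney (0.481) and 2.52 ± 1.56 for spleen (0.925). *Il1b* had 5.32, 4.10, 4.35 and 1.70 in the same order.

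Mouse 2 was above the other mice at every site for these 4 genes. Mean *Il1b* was 24.2, 2255 and 53.4 CPM in peritoneum of mice 1, 2 and 3, and 2174 against 16.9 CPM in kidney, 360 against 205 CPM in liver and 222 against 9.62 CPM in spleen of mice 2 and 3. Mean *Csf3r* was 3.84, 694 and 7.20 CPM in peritoneum, and 861 against 3.89 CPM in kidney, 253 against 49.2 CPM in liver and 61.3 against 7.99 CPM in spleen. Without mouse 2, the *Csf3r* difference was -0.88 in peritoneum and -0.32 in kidney, *Cxcr2* was -1.26 and -1.61, and *Il1b* was 0.26 and -1.23. In liver without mouse 2, *Il1b* was 1.34, *Il1r2* 1.60 and *Csf3r* 1.03, and in spleen *Csf3r* was 0.66. Kidney, liver and spleen without mouse 2 held mouse 3 alone, so their values have no replicate at the site. *Il1r2* without mouse 2 was 2.77 in peritoneum. The DESeq2 calls were not repeated without mouse 2. With mouse as a block, *Csf3r* in peritoneum was 1.27 ± 1.38 (SE).

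The other 5 genes were detected in few site cells of mouse 2. In the 73 site cells of mouse 2, *Il1b* was detected in 54, *Il1r2* in 53, *Csf3r* in 38 and *Cxcr2* in 31, but *S100a8* in 0, *Clec4d* in 3, *G0s2* in 3, *Osm* in 5 and *S100a9* in 9. In the 107 site cells of the other mice the counts were 25, 22, 17 and 10 for the first 4, and 7, 22, 5, 10 and 8 for *S100a8*, *Clec4d*, *G0s2*, *Osm* and *S100a9*. *Il1b*, *Il1r2*, *Csf3r* and *Cxcr2* were detected together in 29 of 73 cells of mouse 2, in 1 of 107 of the other mice and in 5 of 56 CD45+ cells. In liver, *S100a9* averaged 43.7 CPM in mouse 2 and 64.4 CPM in mouse 3 against 6.32 ± 7.78 CPM in GFP+ primary cells. The log2 difference was 4.64 ± 1.80 (SE, edgeR adjusted p = 0.256). Without mouse 2 it was 5.66, with mouse 3 alone at the site. The liver group had 16 cells with a median of 65672 counts, and 1 cell made up 75.3% of the summed counts of mouse 2.

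**Figure D5:**
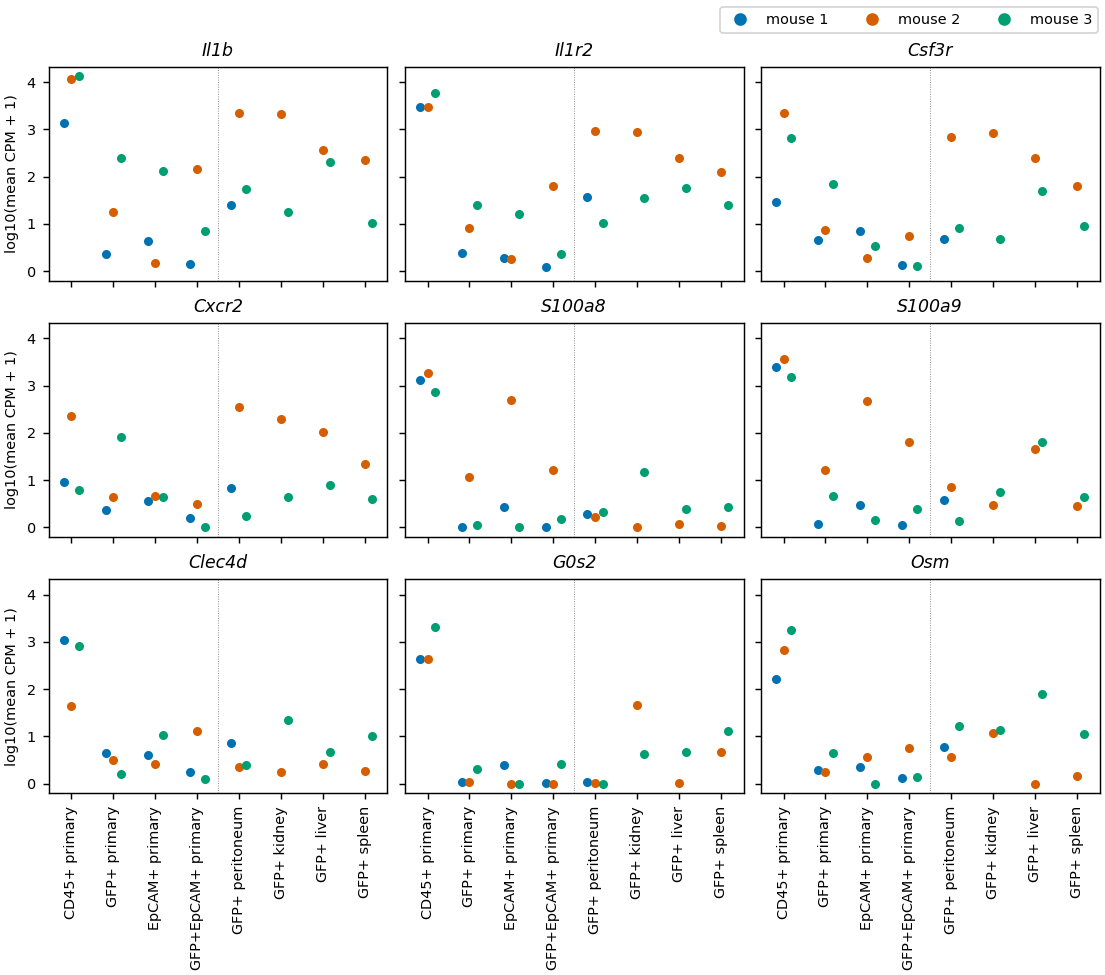
Mean level of each gene (y axis, log10 of mean CPM + 1) by sort and site (x axis); each point is a mouse and the dotted line separates primary tumour from metastasis sites. For *Il1b*, *Il1r2*, *Csf3r* and *Cxcr2* mouse 2 (orange) is above the other mice at each site, and for *S100a8*, *Osm*, *G0s2* and *Clec4d* every site mean is below every CD45+ mean.

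In order of mean level over mice, CD45+ cells ranked first for 8 of the 9 genes. The next group was kidney for *Il1b*, *Il1r2*, *Csf3r*, *Clec4d* (11.1 CPM) and *G0s2* (24.6 CPM). Kidney has no cells of mouse 1, and in mouse 2 mean *Il1b* was higher in peritoneum (2255 CPM) than in kidney (2174 CPM), so their order was not the same within that mouse. For *Cxcr2* peritoneum (119 ± 201 CPM, SD, 3 mice) and kidney (99.6 ± 136 CPM, 2 mice) ranked above CD45+ cells (78.9 ± 125 CPM, 3 mice), and these neighbours differed by less than their spread. For *S100a8* and *S100a9* the second group was EpCAM+ (166 ± 287 and 159 ± 273 CPM), with nearly all of it in cell 19 of mouse 2. CD45+ means were 8707 ± 6423 CPM for *Il1b*, 3955 ± 1675 for *Il1r2*, 981 ± 1156 for *Csf3r*, 1294 ± 576 for *S100a8*, 2581 ± 1069 for *S100a9*, 649 ± 546 for *Clec4d*, 973 ± 932 for *G0s2* and 864 ± 818 for *Osm*. The SD exceeded the mean for *Csf3r* and *Cxcr2*.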

How the data were processed

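RNA expected counts and DNA counts per library were deposited by the authors; the submitters' processing notes name STAR, kallisto, Bowtie 1.0 and build mm9, and their roles are not given in the sources used here. Values of the RNA table that are not whole were kept for CPM and rounded after summing for edgeR. Rows for 92 spike-ins and 4 repeated symbols were left out. For each mouse and sort, the kept cells' counts were added up. There were 2 fits, for the 4 primary sorts (19703 genes after filterByExpr) and for GFP+ cells of 5 sites (21988 genes), with TMM scaling and quasi-likelihood tests (edgeR 4.0.16); limma 3.58.1 and DESeq2 1.42.0 served as alternatives. The script was tested on simulated data. SE is the log2 difference divided by the square root of F. Same-numbered samples come from the same mouse; their deviations correlated with a median of 0.06 (primary sorts) and 0.08 (sites), against -0.04 and -0.06 between mice. Mouse as a block was an alternative.

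The 9 genes and the gene lists were chosen with earlier results of these data known. Named genes were the 9, the 3 genes with the highest rho to each over CD45+ cells (at least 10 CPM in at least 6 cells, predicted genes left out), and up to 4 genes per list with the smallest p in CD45+ against GFP+ cells; *Cd14*, *Itgb2* and single outlying cells were named after their values were seen. Alternatives were other scalings, filters, tools, pseudocounts, detection limits and leaving out each mouse; leaving out CD45+ cell 35 was added after seeing the data. P-values measure the spread between mice, which were 3 in the primary sorts and peritoneum and 2 in kidney, liver and spleen. The groups of a fit shared 1 estimate of this spread. Samples of the same mouse were treated as independent except with mouse as a block. Sequences were taken from RefSeq's promoter table (GRCm38.p6) and not placed on mm9. A result of the granule list is not reported here.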

Additional observations from a re-analysis of the deposited data

Results flagged for a closer look

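Bulk libraries, which enter no comparison above, held counts of some of these genes in sorts not gated on GFP. In the GFP-negative bulk library of the peritoneum of mouse 1, *Il1b* was at 108 CPM (85 counts), *S100a9* at 25.5 CPM (20 counts), *S100a8* at 21.6 CPM (17 counts), *Osm* at 20.4 CPM (16 counts) and *Il1r2* at 19.1 CPM (15 counts). In the GFP+ bulk library of the same site these 5 genes were at 0 to 0.365 CPM, so the signal lay above the level in the GFP+ library. The remaining genes were under 10 CPM in the GFP-negative library. *Clec4d* was at 8.91 CPM (7 counts), *Csf3r* at 3.82 CPM (3 counts), and *Cxcr2* and *G0s2* at 1.27 CPM (1 count each). In the GFP+ library these were at 1.46, 0.365, 1.82 and 0.365 CPM, so *Cxcr2* was lower in the GFP-negative library. *Epcam* was at 111 CPM and *Col1a1* at 1207 CPM in the GFP-negative library, so it was not free of other cells. Each is 1 library, with no replicate.

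The CD45+ bulk library of mouse 1 held only 121118 RNA counts, against 4488892 DNA counts, and 3 counts correspond to 24.8 CPM. *Cxcr2* was at 51.8 CPM, *Csf3r* and *Osm* at 49.5 CPM and *Clec4d* at 41.3 CPM, on 5 to 6.27 counts each. In the GFP+ primary bulk library of that mouse these genes were at 0 to 0.844 CPM. Exonic reads of genomic DNA enter the RNA table, and their part in the few counts of the CD45+ library was not tested. In the CD45+ bulk library *Il1b*, *Il1r2* and *S100a8* had 1 count each (8.26 CPM), although the summed counts of the CD45+ single cells of that mouse held 2499, 2261 and 1686 CPM of them, so the bulk library goes against the single cells for these genes. *S100a9* and *G0s2* had 0 counts there, which at this depth allows up to 24.8 CPM.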

How the results depend on the processing

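The counts of called genes among the 9 were 7, 6 and 9 for CD45+ against GFP+, EpCAM+ and GFP+EpCAM+ cells. Leaving out 1 mouse gave 2 to 7, 2 to 7 and 2 to 9, with the lowest value without mouse 3. Over all 20562 genes tested without mouse 3, 17, 10 and 10 were called higher in the same order. No alternative reversed a CD45+ difference, but 26 of the values for single genes no longer passed the threshold, most of them without mouse 3. The differences were smaller with each cell weighted alike, down to 0.86 (*Cxcr2*) and 2.28 (*Clec4d*) against EpCAM+ cells, and *Cxcr2* against GFP+ cells was 0.20 without mouse 2. DESeq2, which gave no adjusted p for 2 to 5 of the 9 genes per comparison, called 1 gene in peritoneum and 2 in liver, where edgeR called 0. Over all 21988 genes DESeq2 called 82 higher and 86 lower in peritoneum, and 532 higher and 623 lower in liver. Mouse as a block (the pairing by animal) gave 8, 7 and 8 called genes in the 3 CD45+ comparisons. Over all 19703 genes it called 102, 114 and 201 higher. The block reversed *Cxcr2* in kidney (-0.70), liver (-0.063) and spleen (-1.34), and *Il1b* (-1.59) and *Csf3r* (-0.32) in spleen. The cause was not tested. The block changed no other call among the 9 beyond those given with the results. Without mouse 2, *Cxcr2* was -1.26 (peritoneum), -1.61 (kidney), -0.47 (liver) and -0.64 (spleen), *Csf3r* -0.88 and -0.32 in peritoneum and kidney, and *Il1b* -1.23 and -2.33 in kidney and spleen. The highest values came without mouse 3: *Cxcr2* 6.96, 5.54, 5.85 and 3.18 for peritoneum, kidney, liver and spleen, *Csf3r* 7.57 and 6.78 for peritoneum and kidney, and *Il1b* 8.14 and 5.51 for kidney and spleen. In kidney, liver and spleen, leaving out mouse 2 or mouse 3 left 1 mouse, so those values have no replicate at the site.

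The share of CD45+ cells with a gene, as a mean over mice, moved with the detection limit. At 1 count it was 89.2% for *Il1r2*, 82.01% for *Csf3r*, 61.5% for *Cxcr2*, 55.6% for *S100a8*, 63.5% for *S100a9*, 73.6% for *Clec4d*, 47.2% for *G0s2* and 76.45% for *Osm*. At 100 CPM it was 67.9% for *Il1b*, 23.5% for *Csf3r*, 3.33% for *Cxcr2*, 32.97% for *S100a9*, 21.2% for *Clec4d* and 29.2% for *Osm*. Thinned to 50000 counts per cell, *Cxcr2* was at 28.1%. In GFP+ primary cells, shares at 1 count were 53.2% for *Il1b*, 42.1% for *Il1r2*, 49.5% for *Csf3r*, 32.2% for *Cxcr2*, 15.4% for *S100a8*, 26.7% for *S100a9*, 38.35% for *Clec4d*, 13.6% for *G0s2* and 23.1% for *Osm*; at 100 CPM they were 2.47% for *Il1r2*, 1.23% for *Csf3r* and *Cxcr2* and 0% for *Clec4d* and *Osm*; thinned, 10.1% for *Cxcr2* and 3.802% for *G0s2*. At 1 count, 28 cells held both *S100a8* and *S100a9*, 24 both *Csf3r* and *G0s2*, and 34 both *Il1b* and *S100a9*. Within mouse 1 rho was 0.57 for the calprotectin pair, 0.45 for *Il1b* and *Il1r2* and 0.40 for *Csf3r* and *G0s2*, and within mouse 3 it was 0.53 for *Il1b* and *S100a9*. Depth limits what a share at 1 count can show in cells of about 10000 counts.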

Other observations

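In the GFP+ primary bulk library of mouse 2, *Il1r2* was at 27.8 CPM (532 counts) while *Il1b* was at 0.0522 CPM and *S100a8*, *S100a9*, *Clec4d*, *G0s2* and *Osm* at 0 counts. In the GFP+ primary bulk library of mouse 1, *Il1r2* had 0 counts; the labels of that library name EpCAM as its marker in 1 field and GFP+ in the others, so its sort is uncertain. The GFP-negative primary bulk library held 8520 counts and is too shallow for these genes.

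In primary tumour cells outside the CD45+ gate, a few cells carried several of the genes. GFP+ cell 81 of mouse 3 had 5040 CPM of *Il1b*, 2224 CPM of *Cxcr2* and 57.8 CPM each of *Il1r2* and *Csf3r*, with *S100a8* and *S100a9* at 0. GFP+ cell 37 of mouse 2 had 137 CPM of *Il1b*, 169 CPM of *S100a8* and 135 CPM of *S100a9* beside 2515 CPM of *Col1a1*. GFP+EpCAM+ cell 15 of mouse 2 had 237 CPM of *Il1b*, 452 CPM of *S100a9* and 151 CPM of *S100a8*. Peritoneum cell 42 and CD45+ cell 31, both of mouse 2, correlated at r = 0.945 over 119 listed genes and 0.889 over all genes. Their DNA counts gave a chi-square per degree of freedom of 2.15. That value rests on only 4384 DNA counts in cell 42, against 78108 in cell 31, and cell 42 held 24242 RNA counts. This pair was not among the library pairs compared at the start. Whether both libraries hold material of the same cell was not tested.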
